A study of Mus musculus with 2 samples.

Results

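Interleukin-1 family and inflammasome genes were followed through the cells of orthotopic pancreatic tumors from mice given phosphate-buffered saline (PBS) or cmExoaCD11b. The set held 10 genes taken by symbol: Il1a, Il1b, Il18, Il1rn, Il1r2, Il18bp, Nlrp3, Casp1, Casp4 and Gsdmd, and all 10 were found among the 32285 genes of the count tables. cmExoaCD11b are exosomes that carry interleukin-12 mRNA, the STING agonist cGAMP and an antibody against CD11b, a myeloid integrin. Tumors were grown in the pancreas of male C57BL/6J mice of 5 to 6 weeks from the K210 tumor cell line, and both groups carried them. Treatment was intraperitoneal, at intervals of days and with 5 µg of cGAMP per mouse in the cmExoaCD11b group, and tumors were taken 48 h after treatment. Each group was 1 single-cell 3′ library pooled from 3 mice, so mice could not be told apart, no statistical test between treatments was possible, and treatment cannot be told apart from any other difference between the 2 libraries.

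Interleukin-1 alpha and interleukin-1 beta are cytokines that signal through the same receptor, and interleukin-18 acts through a receptor of its own. Interleukin-1 beta and interleukin-18 are made as inactive precursors that caspase-1 cuts once a sensor such as NLRP3 has assembled an inflammasome, whereas caspase-4 (often called caspase-11 in mice) responds to lipopolysaccharide in the cytosol, and both caspases cut gasdermin D, whose fragment forms pores in the membrane. Because cutting and release follow transcription, transcript levels of these genes do not measure secreted cytokine or inflammasome activity.

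After cell calling and filtering, 6818 cells with a median of 3471.5 UMIs remained in the PBS library and 7050 cells with a median of 4133 UMIs in the cmExoaCD11b library. Cells were put into classes by the UMIs of marker genes, none of which was among the 10 genes. Neutrophils made up most cells in both libraries and were split into precursors (376 PBS and 606 cmExoaCD11b cells), immature neutrophils with secondary granule transcripts (836 and 1414), mature neutrophils with markers such as Retnlg and Mmp8 (838 and 1099) and tumor neutrophils below all those marker levels (2663 and 1343). Tumor neutrophils were split further into an interferon, a hypoxic, an inflammatory and a remaining class by their strongest marker programme. Macrophages (303 and 72), monocytes (73 and 130), T cells (367 and 839) and B cells (218 and 233) also held at least 50 cells in each library, whereas type 1 dendritic cells (12 and 54), other dendritic cells (44 and 56), natural killer cells (22 and 81), plasma cells (48 and 118) and keratin-expressing epithelial cells (21 and 19) did not. Levels of gate markers followed from the gates and so do not test them. In CPM (UMIs of a gene per 1e6 UMIs of the class), Ltf stood at 8518 and 6839 in immature neutrophils, PBS library first. It stood at 200 and 187 in tumor neutrophils, which lie below the immature marker threshold. C1qa stood at 2274 and 1660 in macrophages and Cd79a at 1800 and 1550 in B cells. Retnlg did not separate immature from mature neutrophils, at 12509 and 14034 CPM in the immature class. The neutrophil threshold cut through a continuous range, with 22.0% of PBS and 16.2% of cmExoaCD11b cells within a factor of 2 of it. The libraries shared 16 cell barcodes. The cmExoaCD11b library had the higher median mitochondrial share (0.850% against 0.458%).

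Below, a level is the CPM of a gene in the summed UMIs of a class, with its exact Poisson 95% interval, and a ratio is the cmExoaCD11b level divided by the PBS level, with its exact conditional 95% interval. All intervals cover counting error only, not the spread between mice. Reads came from 3′ ends, so levels were not divided by transcript length, and a ratio between 2 genes was read only for how it differed across classes. A gene was counted as higher or lower where its ratio was past 1.5-fold in that direction and it had at least 50 UMIs over both libraries. Fewer transcribing cells and less RNA per cell both lower a class sum, and the share of cells with a UMI is given where it helps to tell them apart.

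The promoters are shown for Il1a and Il1b, neighbours on chromosome 2 with no protein-coding gene between them, whose ratios differed. They are also shown for Casp1 and Casp4, adjacent genes on chromosome 9. Each of these 2 was past 1.5-fold higher in the cmExoaCD11b library in the neutrophil stages, macrophages and monocytes. In interferon tumor neutrophils they differed, with ratios of 2.87 for Casp1 and 1.17 for Casp4. Shared regulation was not tested. Each window runs from 250 bases before to 50 bases after an annotated start, 5′ to 3′ on the strand of the gene, from RefSeq on GRCm38.p6; 9 of the 10 genes matched, with 13 windows, and Gsdmd was not among them. Capitals mark matches to the patterns searched on both strands.
Il1a, chr2:129309923-129310222, minus strand: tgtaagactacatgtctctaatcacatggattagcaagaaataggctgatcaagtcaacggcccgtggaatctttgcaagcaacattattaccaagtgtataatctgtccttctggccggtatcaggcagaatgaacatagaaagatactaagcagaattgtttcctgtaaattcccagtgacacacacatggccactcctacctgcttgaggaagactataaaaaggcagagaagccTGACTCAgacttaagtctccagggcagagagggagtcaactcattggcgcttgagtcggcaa
Il1b, chr2:129371090-129371389, minus strand: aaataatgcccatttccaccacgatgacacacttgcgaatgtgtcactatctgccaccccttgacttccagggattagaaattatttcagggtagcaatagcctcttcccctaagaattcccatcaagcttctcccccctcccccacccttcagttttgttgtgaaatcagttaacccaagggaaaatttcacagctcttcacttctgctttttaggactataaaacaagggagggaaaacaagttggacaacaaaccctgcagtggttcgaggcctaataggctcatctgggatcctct
Casp1, chr9:5298267-5298566, plus strand: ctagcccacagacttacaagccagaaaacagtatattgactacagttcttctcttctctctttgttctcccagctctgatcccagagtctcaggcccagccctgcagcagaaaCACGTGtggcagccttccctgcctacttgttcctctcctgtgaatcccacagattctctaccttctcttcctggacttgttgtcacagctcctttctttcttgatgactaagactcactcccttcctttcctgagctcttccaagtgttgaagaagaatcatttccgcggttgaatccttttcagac
Casp4, first of 2 windows, chr9:5308599-5308898, plus strand: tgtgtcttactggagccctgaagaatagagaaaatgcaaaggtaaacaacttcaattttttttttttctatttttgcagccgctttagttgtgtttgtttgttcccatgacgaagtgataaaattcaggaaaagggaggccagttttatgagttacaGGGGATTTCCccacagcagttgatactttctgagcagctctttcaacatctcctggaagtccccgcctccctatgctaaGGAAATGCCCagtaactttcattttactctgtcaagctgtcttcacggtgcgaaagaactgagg

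The capitals in the Il1a window are a match to TGAGTCA, the AP-1 pattern, read on the opposite strand. TGAGTCA was found in 5.2% of 32851 RefSeq promoter windows and, among the 9 genes with a window, in Il1a and Il1rn. The Casp4 window held 2 matches to GGGNNTTTCC, an NF-kB pattern present in 1.63% of windows, which Il1rn also held. The capitals of Casp1 are overlapping matches of ACGTG, the core of hypoxia response elements, on both strands, a short pattern held by 19.6% of windows and also found in Il1r2 and Nlrp3. The STAT pattern TTCNNNGAA, in 8.30% of windows, was found in Il1r2 among the members. GAAANNGAAA, the pattern of interferon-stimulated response elements, was in 3.44% of all windows and in none of the 13, and the printed Il1b window held none of the 5 patterns. These matches describe letters in a window and were not measured as binding.

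**Figure D1:**
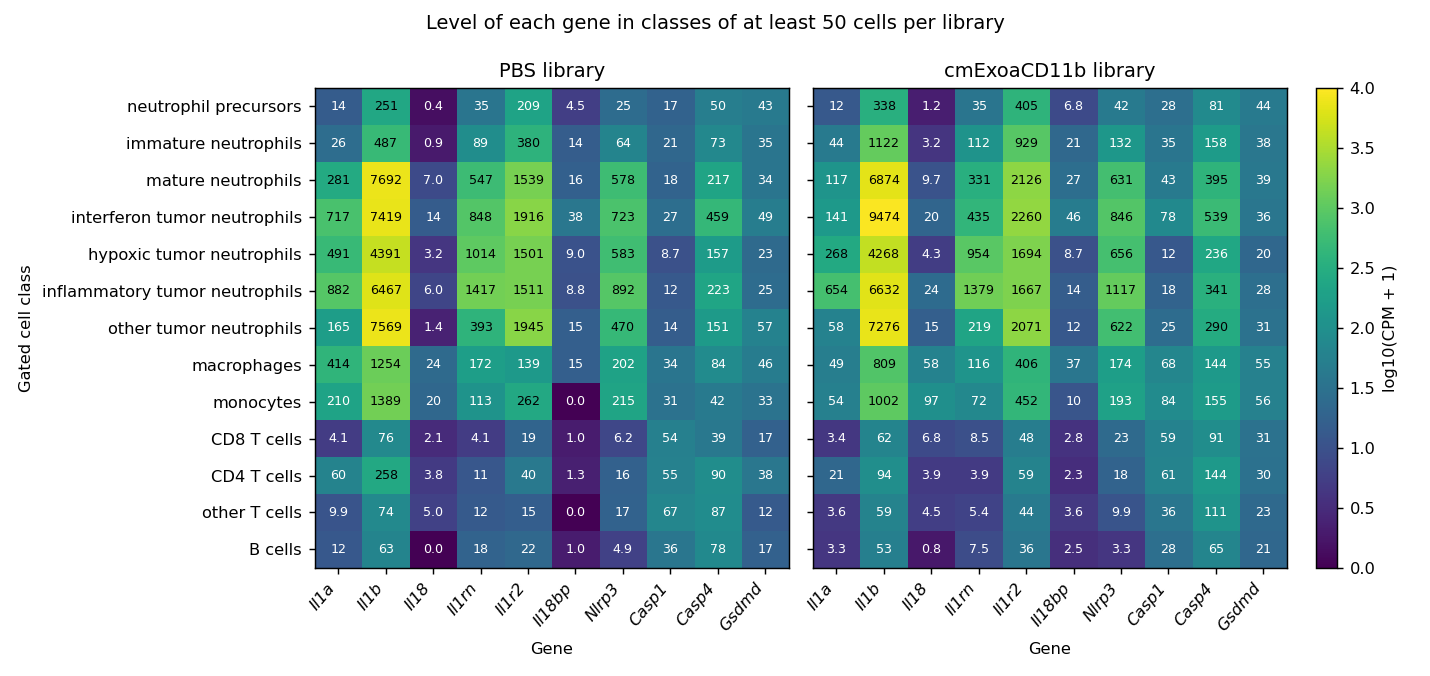
Level of each of the 10 genes (columns) in every gated class with at least 50 cells per library (vertical axis), for the PBS library on the left and the cmExoaCD11b library on the right. Cell numbers are CPM and the color is log10(CPM + 1). Il1b lay between 4268 and 9474 CPM in mature neutrophils and in every tumor neutrophil class of both libraries, whereas Il18, Il18bp, Casp1 and Gsdmd stayed below 100 CPM in every class.

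Il1b was the most abundant of the 10 transcripts in each of the neutrophil classes from immature onward. In the PBS library it stood at 251 CPM in precursors, 487 in immature neutrophils, 7692 in mature neutrophils and 5869 in tumor neutrophils, and the cmExoaCD11b library had 338, 1122, 6874 and 6880. Both libraries therefore had their low values in the granule-forming stages and their high values in mature and tumor neutrophils. Macrophages held 1254 CPM in the PBS and 809 in the cmExoaCD11b library, and monocytes held 1389 and 1002. B cells, which are not a known major source of Il1b, gave 63.0 and 52.6 CPM. These levels were above the 46.8 and 31.0 CPM that free RNA would give at the estimated share of 2.14% and 2.06%. Thinned to 1000 UMIs per cell, 72.8% of PBS tumor neutrophils had an Il1b UMI (95% interval 71.0 to 74.5%, 2449 cells) and 76.2% of cmExoaCD11b tumor neutrophils did (73.6 to 78.6%, 1125 cells), against 4.69% and 6.01% of B cells. Median depths before thinning were 2657 and 2038 UMIs for tumor neutrophils and 3533.5 and 4219 UMIs for B cells.

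Between libraries, Il1b stayed within 1.5-fold in mature and tumor neutrophils. The ratio was 0.894 in mature neutrophils (0.878 to 0.910) and 1.17 in tumor neutrophils (1.15 to 1.19). Within tumor neutrophils the interferon class went from 7419 to 9474 CPM (ratio 1.28), whereas hypoxic cells had 4391 and 4268 CPM (0.972), inflammatory cells 6467 and 6632 (1.03) and the remaining class 7569 and 7276 (0.961). Hypoxic cells thus had the lowest Il1b level of the tumor neutrophil classes in both libraries. With the 4 classes weighted as in the PBS library, the ratio over tumor neutrophils was 1.02.

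Immature neutrophils, the class marked by Ltf, Camp, Ngp and Lcn2, differed by more than 1.5-fold. Their Il1b level was 487 CPM in the PBS library (473 to 501) and 1122 CPM in the cmExoaCD11b library (1105 to 1139), a ratio of 2.30 (2.23 to 2.38). Cxcr2, a chemokine receptor that neutrophils gain as they leave the marrow, was also higher in this class, at 149 against 358 CPM. In immature neutrophils without a Cxcr2 UMI (324 and 297 cells), a subset chosen after seeing that difference, Il1b was 392 and 925 CPM, a ratio of 2.36. A cell without a Cxcr2 UMI may still hold the transcript, and Retnlg stood at 7629 and 7030 CPM in this subset. The subset therefore does not hold maturity fixed.

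Macrophages and monocytes had lower Il1b in the cmExoaCD11b library. The macrophage ratio was 0.645 (0.596 to 0.698), and the Arg1-high macrophages, marked by the arginase gene of alternatively activated cells, differed more (1454 and 753 CPM, ratio 0.518) than the Arg1-low ones (945 and 850 CPM, ratio 0.899). Only 29 Arg1-high and 43 Arg1-low macrophages remained in the cmExoaCD11b library. In monocytes the ratio was 0.721 (0.660 to 0.788). The macrophage ratio was 0.798 with stricter gates and 0.751 with cells thinned to 1000 UMIs, so its place past 1.5-fold depended on the gate and on the weight of deep cells. The neutrophil transcripts Csf3r (60 and 50.6 CPM), Cxcr2 (12.1 and 3.45) and Retnlg (60 and 51.8) were low in macrophages of both libraries, and their part in the macrophage values was not tested. Il1b in T cells was 143 and 71.4 CPM (ratio 0.501), but 5 cells held 54.0% of the PBS and 31.3% of the cmExoaCD11b Il1b UMIs of that class, and without them the levels were 68.8 and 50.5 CPM (ratio 0.734), beside 63.0 and 52.6 CPM in B cells.

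Il1a, the alpha form, was less abundant than Il1b in each class of at least 50 cells and was lower in the cmExoaCD11b library in nearly all of them. Tumor neutrophils had 667 CPM (649 to 686) in the PBS and 339 CPM (319 to 361) in the cmExoaCD11b library, a ratio of 0.508 (0.475 to 0.544). Macrophages had 414 CPM (395 to 433) and 49.5 CPM (35.8 to 66.7), a ratio of 0.120 (0.0863 to 0.162), and monocytes 210 and 54.0 CPM, a ratio of 0.257 (0.187 to 0.350). These intervals of the 2 libraries did not overlap in tumor neutrophils or macrophages, but they cover counting error only. The share of all genes with intervals that did not overlap was not counted. Small differences could also lie outside counting error, such as that of Il1b in mature neutrophils (ratio 0.894, 0.878 to 0.910). Mature neutrophils had 281 and 117 CPM (ratio 0.416). Free RNA in the PBS library was also richer in Il1a, with 299 CPM in empty droplets against 62.6, which at the estimated shares would add 6.40 and 1.29 CPM to a class.

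Within tumor neutrophils the size of the Il1a difference varied with the class. The interferon class had the lowest ratio, 0.196 (0.154 to 0.248), with 717 CPM in the PBS and 141 CPM in the cmExoaCD11b library. Its gate rests on interferon genes that were themselves higher in the cmExoaCD11b library, so the 144 PBS and 347 cmExoaCD11b cells in it were not chosen by equal standing within their libraries. Hypoxic cells had 491 and 268 CPM (ratio 0.546), inflammatory cells 882 and 654 CPM (0.742), and the remaining class 165 and 57.6 CPM (0.349). With these classes weighted as in the PBS library, the Il1a ratio over tumor neutrophils was 0.653, against 0.508 as found. The inflammatory class, marked by Tnf, Ccl3, Ccl4 and Icam1, held the highest Il1a level of all classes of at least 50 cells in each library.

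Shares of cells moved with the levels. After thinning, Il1a was found in 26.6% of PBS and 16.1% of cmExoaCD11b tumor neutrophils, in 14.2% and 6.74% of mature neutrophils and in 20.2% (15.8 to 25.2%, 302 cells) and 5.56% (1.53 to 13.6%, 72 cells) of macrophages. In B cells the shares were 1.41% and 0%, and 0 of 233 cells allows a share of up to 1.29% of cells with a UMI at this depth, which is no limit on cells that express the gene. Median depths of macrophages before thinning were 12412 and 9770 UMIs.

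Immature neutrophils were the exception for Il1a, at 25.7 CPM in the PBS and 44.1 CPM in the cmExoaCD11b library, a ratio of 1.71 (1.48 to 1.99). That value did not survive a change in processing, since without the removal of likely doublets the ratio was 0.873. A single cmExoaCD11b cell held 51 Il1a UMIs. Precursors had 13.6 and 12 CPM, and their ratio of 0.885 had an interval that included 1 (0.71 to 1.11).

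Il1b and Il1a stood in different proportion in the 2 libraries. In mature neutrophils there were 27.4 Il1b UMIs for each Il1a UMI in the PBS library (25.6 to 29.4) and 58.9 in the cmExoaCD11b library (53.6 to 64.8). The proportion went from 10.3 to 67.3 in interferon tumor neutrophils, from 8.95 to 15.9 in hypoxic and from 7.33 to 10.1 in inflammatory tumor neutrophils. Outside neutrophils it went from 2.62 to 8.84 in Arg1-high macrophages, from 4.81 to 35.8 in Arg1-low macrophages and from 6.61 to 18.6 in monocytes. The cmExoaCD11b macrophage values rest on few Il1a UMIs: 31 in 29 Arg1-high cells (interval 6.08 to 13.3) and 12 in 43 Arg1-low cells (20.3 to 69.7). In all of these classes the cmExoaCD11b library had the higher proportion of Il1b.

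**Figure D2:**
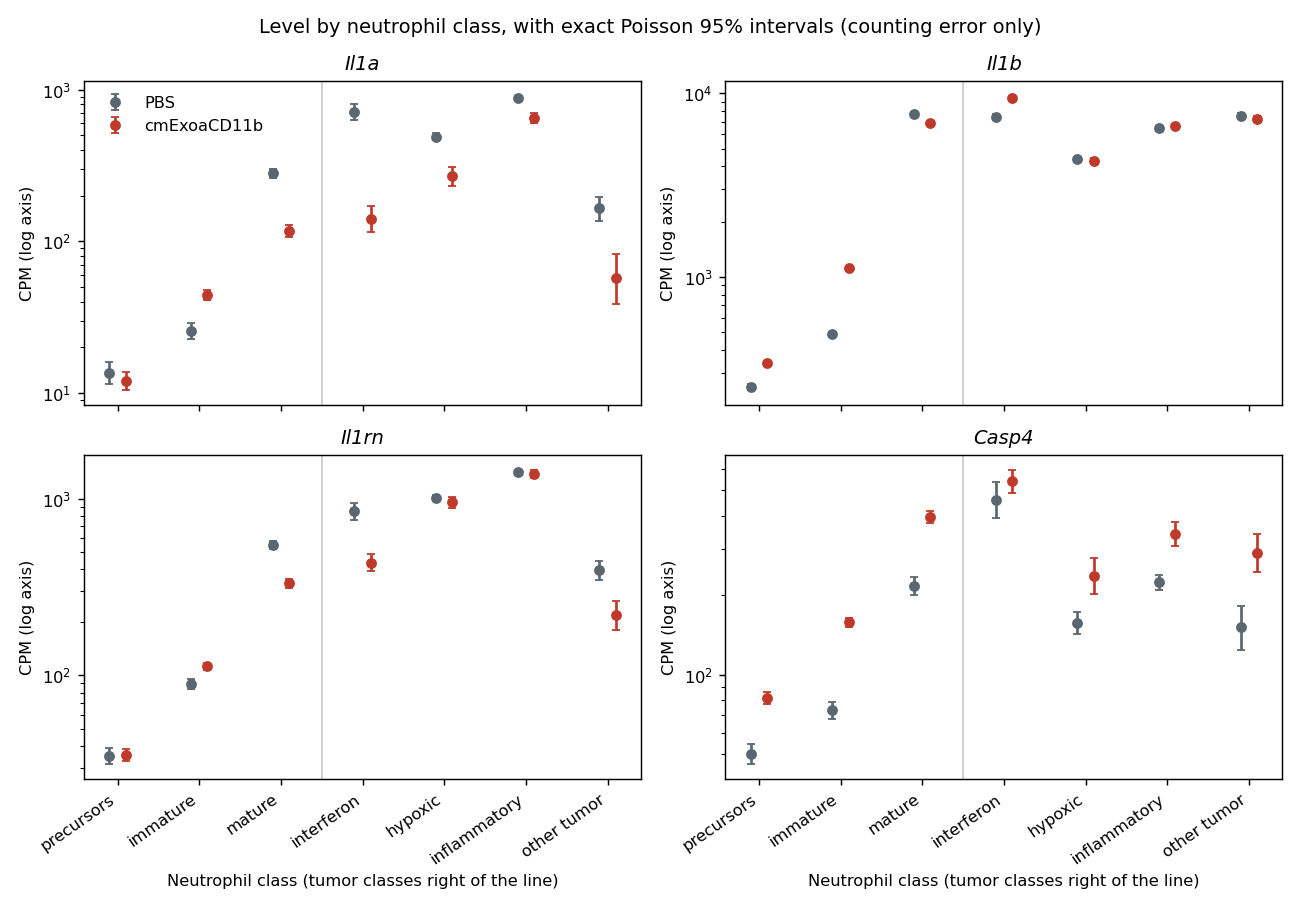
CPM (log axes, which differ between panels) of Il1a, Il1b, Il1rn and Casp4 by neutrophil class on the horizontal axis, for PBS (gray) and cmExoaCD11b (red). Points are class levels, bars are exact Poisson 95% intervals for counting error only, and tumor classes stand right of the vertical line. Il1a was lower in the cmExoaCD11b library in mature and all tumor classes. The ratio of Casp4 was 1.17 in the interferon class, 2.15 in the immature and 1.82 in the mature class.

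Il18, whose product drives interferon gamma from T and natural killer cells, was scarce, and its values rest on few UMIs. Among classes of at least 50 cells in each library, it was highest in macrophages of the PBS and in monocytes of the cmExoaCD11b library. Monocytes had 20.4 CPM from 13 UMIs in the PBS and 96.6 CPM from 111 UMIs in the cmExoaCD11b library, a ratio of 4.74 (2.66 to 9.19). Macrophages had 23.6 CPM (101 UMIs) and 57.5 CPM (50 UMIs), a ratio of 2.44 (1.70 to 3.46). Tumor neutrophils had 4.93 and 17.0 CPM, a ratio of 3.45 (2.22 to 5.39). Of the 38 and 51 Il18 UMIs behind it, the inflammatory class held 23 and 26 (5.96 and 24.2 CPM) and the remaining class 1 and 8 (1.40 and 15.4 CPM). Mature neutrophils differed less than their counting error, at 7.01 and 9.66 CPM. In the 12 and 54 type 1 dendritic cells the levels were 12.6 and 75.1 CPM, and epithelial cells, a known source of Il18, had 22.2 and 25.6 CPM in 21 and 19 cells.

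The 3 genes that restrain these cytokines did not move together. Il1rn encodes the interleukin-1 receptor antagonist, which occupies the receptor without signalling. Tumor neutrophils had 1150 CPM of Il1rn (1127 to 1175) in the PBS and 854 CPM (821 to 888) in the cmExoaCD11b library, a ratio of 0.743 (0.71 to 0.776), and mature neutrophils had 547 and 331 CPM, a ratio of 0.606 (0.563 to 0.652). Hypoxic (1014 and 954 CPM) and inflammatory tumor neutrophils (1417 and 1379 CPM) differed little, whereas the interferon class had 848 and 435 CPM (ratio 0.513) and the remaining class 393 and 219 CPM (0.557). With the tumor classes weighted as in the PBS library the ratio was 0.933. Under the processing alternatives the tumor neutrophil ratio ran from 0.679 to 1.53, with 8 of 9 values below 1. Macrophages (172 and 116 CPM, ratio 0.674) and monocytes (113 and 72.2 CPM, ratio 0.640) were also lower, and immature neutrophils higher, at 89.2 and 112 CPM (ratio 1.26). The immature ratio ran from 0.888 to 2.21 under the alternatives, with 9 of 10 values above 1.

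Il1r2 encodes the decoy receptor that binds interleukin-1 without passing on a signal. It was higher in the cmExoaCD11b library in all neutrophil classes, from 209 to 405 CPM in precursors (ratio 1.94, 1.85 to 2.04), from 380 to 929 in immature neutrophils (2.45, 2.36 to 2.54), from 1539 to 2126 in mature neutrophils (1.38) and from 1567 to 1885 in tumor neutrophils (1.20). The 2 early classes thus passed 1.5-fold and the 2 later ones did not. Macrophages had 139 CPM in the PBS and 406 CPM in the cmExoaCD11b library, a ratio of 2.93 (2.56 to 3.35), with both Arg1-high (152 and 459) and Arg1-low cells (118 and 368) higher. Monocytes had 262 and 452 CPM (ratio 1.73, 1.45 to 2.07). Empty droplets held 474 and 628 CPM of Il1r2, which at the free RNA shares would give 10.1 and 12.9 CPM in any class. With free RNA subtracted at these shares, the macrophage ratio of Il1r2 stayed past 1.5-fold. So did all 48 member ratios past it in the classes where alternatives were run. For Il1r2 in macrophages the subtraction could change little, since 10.1 and 12.9 CPM are small beside 139 and 406 CPM. B cells had 21.7 and 35.9 CPM and T cells 25.8 and 50.5 CPM, so the T cell value was near that of B cells. Both classes lay above the free RNA estimate, so RNA beyond these shares was not subtracted. Dendritic cells other than type 1 went the other way, at 436 and 256 CPM, in 44 and 56 cells.

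Il18bp, which encodes the soluble protein that neutralizes interleukin-18, was low throughout and higher in the cmExoaCD11b library in the neutrophil stages, macrophages and monocytes. It went from 14.1 to 21.3 CPM in immature neutrophils (ratio 1.51), from 15.7 to 27.2 in mature neutrophils (1.73), from 10.9 to 20 in tumor neutrophils (1.84, 1.30 to 2.59) and from 15.2 to 36.8 in macrophages (2.43, 1.54 to 3.76). Monocytes had 0 UMIs in the PBS library, which allows up to 4.70 CPM, and 12 UMIs or 10.4 CPM in the cmExoaCD11b library. The tumor neutrophil value was 1.23 both with cells thinned to 1000 UMIs and with the tumor classes weighted as in the PBS library.

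Nlrp3, the sensor that nucleates the best known inflammasome, was, like Il1b, high in mature and tumor neutrophils and low in precursors. Its level increased from precursors (24.9 CPM PBS, 41.8 CPM cmExoaCD11b) through immature (63.8 and 132) to mature (578 and 631) and tumor neutrophils (734 and 861), with its highest levels in the inflammatory class (892 and 1117). The order was not that of Il1b throughout, since the remaining tumor class had the lowest Nlrp3 of the tumor classes (470 and 622) but not the lowest Il1b. Macrophages (202 and 174 CPM) and monocytes (215 and 193 CPM) held less than the tumor neutrophils of their library. Between libraries Nlrp3 was higher in precursors (ratio 1.68) and immature neutrophils (2.06, 1.89 to 2.26) and stayed within 1.5-fold in mature neutrophils (1.09), tumor neutrophils (1.17), macrophages (0.861) and monocytes (0.9). In T cells the ratio of 1.5 came from 12 and 18 CPM and had an interval from 0.950 to 2.45.

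Among thinned tumor neutrophils, Nlrp3 was found more often in cells that had an Il1b UMI. In the PBS library 42.1% of 1782 such cells had an Nlrp3 UMI, against 25.9% of the 667 without Il1b, and in the cmExoaCD11b library the shares were 45.5% of 857 and 20.9% of 268. Il1r2 showed the same order (63.9% against 40.9%, and 68.0% against 37.7%). Il1rn did not, at 45.0% against 53.5% in the PBS and 36.4% against 34.7% in the cmExoaCD11b library. Casp4 was found in 16.3% against 13% and in 26.8% against 14.2%. Cells of 1 library are not replicates, and these shares describe the 2 libraries only.

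Casp1, the protease that matures interleukin-1 beta and interleukin-18, had a different spread over classes from Il1b. In the PBS library it stood at 56.8 CPM in T cells, 36.4 in B cells and 34.3 in macrophages, above the 18 CPM of mature and 11.7 CPM of tumor neutrophils. The cmExoaCD11b library had higher levels in the myeloid classes, with 42.8 CPM in mature neutrophils (ratio 2.38, 1.74 to 3.29), 32.0 in tumor neutrophils (2.74, 2.03 to 3.70), 67.9 in macrophages (1.98, 1.44 to 2.69) and 83.6 in monocytes (2.67, 1.63 to 4.56). T cells as a whole had 53.4 CPM (ratio 0.940) and B cells 28.4 CPM (0.779), whereas T cells with UMIs of neither or of both Cd4 and Cd8 genes (98 and 260 cells) had 67.0 and 36.0 CPM, a ratio of 0.538 (0.322 to 0.912). Within tumor neutrophils the interferon class had 27.2 and 78.0 CPM (ratio 2.87) and the hypoxic class 8.66 and 11.6, and at PBS class shares the ratio over tumor neutrophils was 1.63.

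Casp4, the sensor of cytosolic lipopolysaccharide, was more abundant than Casp1 in neutrophils and was past 1.5-fold higher in the cmExoaCD11b library in every neutrophil class but the interferon one. Immature neutrophils had 73.1 and 158 CPM (ratio 2.15, 1.98 to 2.35), mature neutrophils 217 and 395 (1.82, 1.66 to 1.99) and tumor neutrophils 204 and 355 (1.74, 1.61 to 1.88). Within tumor neutrophils the interferon class already had 459 CPM in the PBS library and had 539 CPM in the cmExoaCD11b library, a ratio of 1.17 whose interval included 1 (0.977 to 1.42). The hypoxic (157 and 236 CPM), inflammatory (223 and 341) and remaining classes (151 and 290) had ratios of 1.5, 1.53 and 1.92. Monocytes had 42.3 and 155 CPM (3.66, 2.43 to 5.71), macrophages 83.6 and 144 (1.72, 1.39 to 2.12) and T cells 66.9 and 113 (1.68, 1.40 to 2.04), of which CD8 T cells had 39.3 and 90.6. B cells, in contrast, had 77.8 and 65.2 CPM (ratio 0.837). After thinning, 17.5% of PBS and 31.1% of cmExoaCD11b mature neutrophils had a Casp4 UMI, and 7.51% and 6.87% of B cells did. With macrophages thinned to 1000 UMIs the ratio was 0.839, the opposite direction.

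Gsdmd, which encodes the pore-forming gasdermin D, differed little between the libraries in most classes. Across precursors, immature, mature and tumor neutrophils, macrophages and monocytes its level was between 28.5 and 46.0 CPM in the PBS library and between 28.7 and 55.7 CPM in the cmExoaCD11b library. The ratio was 1.08 in immature neutrophils, 1.00 in tumor neutrophils (0.774 to 1.29) and 1.20 in macrophages (0.857 to 1.65). Monocytes passed 1.5-fold (32.9 and 55.7 CPM, ratio 1.69), with an interval that reached down to 1.02. Some smaller classes passed it too, with higher levels in CD8 T cells (16.5 and 30.8 CPM, ratio 1.86, 1.05 to 3.48) and a lower one in the remaining tumor neutrophils (57.3 and 30.7 CPM, ratio 0.536, 0.281 to 0.976).

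**Figure D3:**
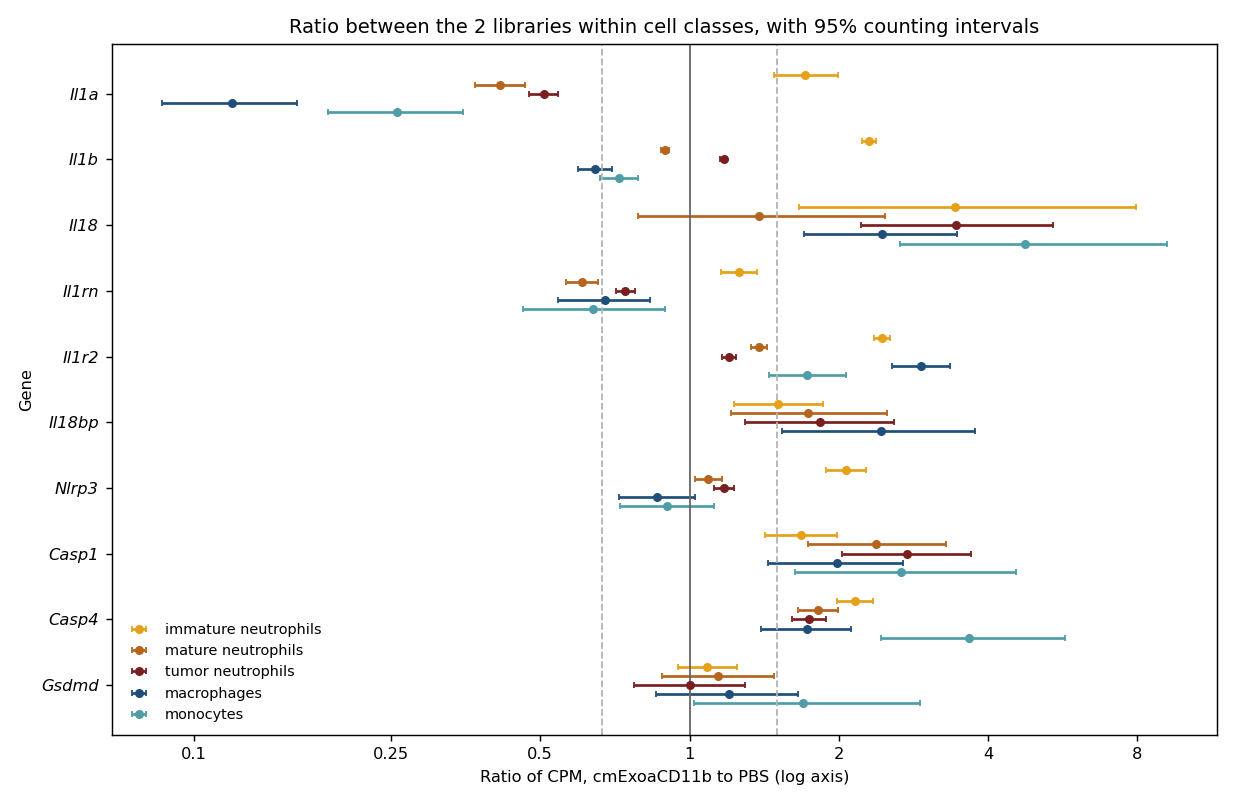
Ratio of CPM in the cmExoaCD11b to the PBS library (horizontal log axis) for the 10 genes (vertical axis) in 5 myeloid classes, with exact conditional 95% intervals. Dashed lines mark 1.5-fold in each direction. Il1a lay below 1 in 4 of the 5 classes, Casp1 and Casp4 lay above 1.5 in all 5, and Gsdmd passed 1.5 in monocytes only among these 5.

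Members past 1.5-fold were counted in 7 classes and set beside the share of all genes tested that passed in the same direction. In tumor neutrophils 4 of 10 were higher (Il18, Il18bp, Casp1 and Casp4), where 18% of all genes tested were, and 1 was lower (Il1a), where 14% were. In macrophages 5 of 10 were higher (Il1r2, Il18, Il18bp, Casp1 and Casp4; background 10.8%) and 2 were lower (Il1a and Il1b; background 13.4%). Monocytes had 5 of 9 higher (Il1r2, Il18, Casp1, Casp4 and Gsdmd; background 16.3%) and 2 lower (Il1a and Il1rn; background 10%). The caspases and Il18 were thus on the higher side and Il1a on the lower side in all 3 of these classes.

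Mature neutrophils had 3 of 10 higher (Il18bp, Casp1 and Casp4; background 16.2%) and 2 lower (Il1a and Il1rn; background 11.7%). Immature neutrophils had 8 of 10 higher, all but Il1rn and Gsdmd (background 15.7%), and 0 lower (background 2.56%), and precursors had 5 of 9 higher (Il1r2, Il18bp, Nlrp3, Casp1 and Casp4; background 9.18%) and 0 lower (background 2.18%). In these 2 early classes the median gene was itself higher, by 0.19 and 0.13 on the log2 scale, and the median member by 0.91 and 0.62. With median-of-ratios size factors in place of CPM the counts were 5 higher in immature neutrophils (Il1b, Il1r2, Il18, Nlrp3 and Casp4) and 2 in precursors (Il1r2 and Nlrp3), where 8.34% and 5.83% of all genes were higher. With no doublet removal 5 of 10 were higher in immature neutrophils (13.9% of all genes), and the Il1a ratio there was 0.873. Il18 in this class rested on 9 PBS UMIs. Cxcr2 was also higher in this class, as given above, and the part of maturity in its ratios was not tested. T cells had 3 of 7 higher (Il1r2, Nlrp3 and Casp4; background 9.83%) and 2 lower (Il1a and Il1b; background 7.11%), and 2 higher and 2 lower with size factors. Both lower members rested on few T cells, since the 5 cells richest in Il1a held 78.6% of the 56 PBS and 81.1% of the 37 cmExoaCD11b Il1a UMIs, and Il1b did not pass 1.5-fold without the 5 cells richest in it. For mature neutrophils, tumor neutrophils, macrophages, monocytes and T cells the median log2 ratios were 0.03, 0.03, 0.004, 0.10 and 0.03 over all genes and 0.33, 0.25, 0.52, 0.76 and 0.27 over the members tested.

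Interferon-stimulated genes moved in the same libraries. All 6 of Isg15, Ifit1, Ifit3, Rsad2, Irf7 and Oasl1 were higher in the cmExoaCD11b library in all 7 classes, where 9.18% to 18% of all genes tested were. Their median log2 ratio was between 1.5 in T cells and 3.33 in immature neutrophils. The list was chosen with earlier results of these data known, so the count is no independent support. The part of these 6 genes in the values of the 10 genes was not tested.

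Tumor neutrophils were 39.1% of PBS and 19.0% of cmExoaCD11b cells. They held 7713072 of 30648262 PBS and 3001586 of 38789218 cmExoaCD11b neutrophil UMIs. Values over all neutrophils therefore mixed the level within a class with the makeup of the library. Il1b over all neutrophils was 2466 and 1792 CPM, a ratio of 0.727. It was 1.07 with the classes weighted by their share of neutrophil UMIs in the PBS library. The same weighting moved Il1a from 0.289 to 0.668, Il1rn from 0.412 to 0.914, Nlrp3 from 0.735 to 1.27, Il18 from 1.71 to 2.72 and Il1r2 from 1.22 to 1.46. Il1a, narrowly, and Il1rn were then no longer past 1.5-fold. Casp4 went from 1.45 to 1.72, across the 1.5-fold line, and Il18bp from 1.51 to 1.47, while Casp1 (1.90 and 1.72) and Gsdmd (1.11 and 1.03) stayed on their side of it. For Il1b and Nlrp3 the ratio over all neutrophils thus moved from below to above 1 under this weighting, and for Il1rn it moved closer to 1. The weighting fixes the shares of the gated classes only, not differences within a class. The weighted values have no interval, and a cause was not tested.

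**Figure D4:**
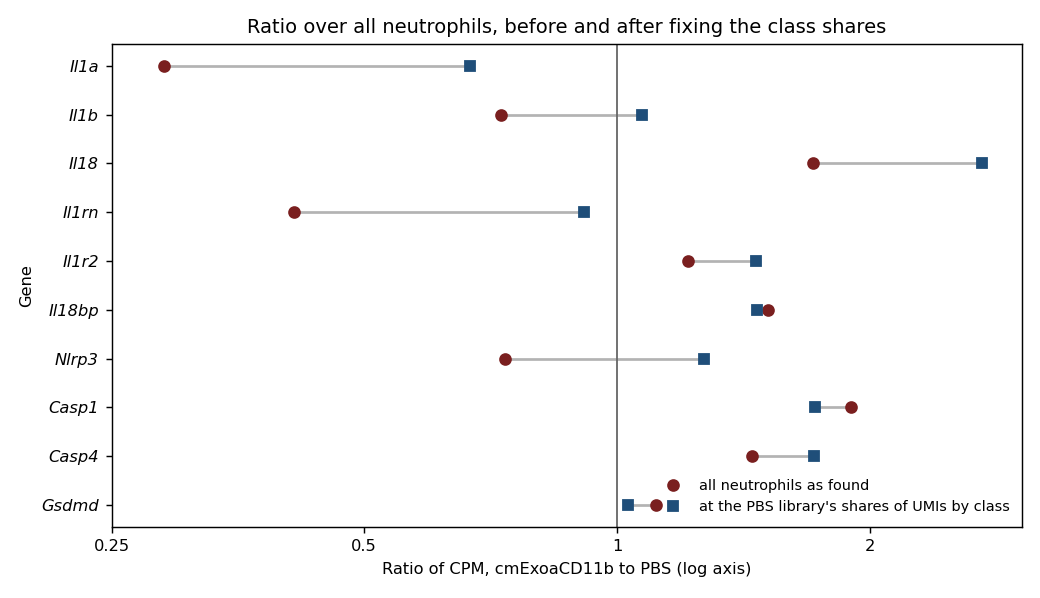
Ratio of CPM in the cmExoaCD11b to the PBS library over all neutrophils (horizontal log axis) for each of the 10 genes (vertical axis), as found (circles) and with the classes weighted by their share of UMIs in the PBS library (squares). Il1b moved from 0.727 to 1.07 and Nlrp3 from 0.735 to 1.27, whereas Il1a stayed below 1.

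The cells that held the transcripts shifted as well. Over all kept cells, Il1a had 10518 UMIs (209 CPM) in the PBS library and 3110 UMIs (50 CPM) in the cmExoaCD11b library, a ratio of 0.240. Tumor neutrophils held 48.9% of the PBS and 32.7% of the cmExoaCD11b Il1a UMIs, macrophages 16.8% and 1.38%, mature neutrophils 8% and 14.4% and immature neutrophils 2.36% and 21.3%. For Il1b, tumor neutrophils held 48.8% and 25.9% of UMIs, mature neutrophils 24.8% and 33.1%, immature neutrophils 5.06% and 21.1% and macrophages 5.79% and 0.883%. In the cmExoaCD11b library mature neutrophils thus held more Il1b UMIs than tumor neutrophils did. Macrophages made up 4.44% of PBS and 1.02% of cmExoaCD11b cells, so their smaller share of Il1a came with both fewer cells and a lower level per cell. Cells of more than 1 lineage, left out of the classes, held 12.8% of PBS and 16.3% of cmExoaCD11b Il1a UMIs. For Il1b they held 6.85% and 7.91%. Whether some of them were macrophages was not tested, so the macrophage shares depend on the gates.

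Other genes of these pathways were read from a list of 42 names, of which 38 were in the count tables. In tumor neutrophils 11 of 29 tested were higher and 1 was lower (18% and 14% of all genes), in macrophages 6 and 1 of 25 (10.8% and 13.4%) and in monocytes 8 and 1 of 21 (16.3% and 10%). Mature neutrophils had 7 and 4 of 25 (16.2% and 11.7%), immature neutrophils 13 and 0 of 29 (15.7% and 2.56%), precursors 10 and 1 of 32 (9.18% and 2.18%) and T cells 3 and 1 of 24 (9.83% and 7.11%). The T cell counts and the lower count of mature neutrophils lay near these background shares. The guanylate-binding proteins, interferon-induced GTPases that promote caspase-4 activation, were among the larger differences: Gbp2 had 78.6 and 273 CPM in tumor neutrophils (ratio 3.48) and 31.0 and 125 CPM in macrophages (4.04), and Gbp5 had 24.6 and 161 CPM in tumor neutrophils (6.53). Pycard, the adaptor ASC that joins NLRP3 to caspase-1, was the 1 gene of the list that was lower in tumor neutrophils, at 122 and 55.0 CPM (ratio 0.449, 0.378 to 0.530). Aim2, a sensor of cytosolic DNA, had 176 and 173 CPM there.

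On the receptor side, Il18r1 and Il18rap, the chains of the interleukin-18 receptor, were higher in tumor neutrophils, with ratios of 2.65 (16.9 and 44.6 CPM) and 1.68. T cells, which express this receptor at a higher level, had 337 and 289 CPM of Il18r1. Myd88, the adaptor shared by the interleukin-1 and interleukin-18 receptors, was higher in tumor neutrophils (1.65), macrophages (38.7 and 66.8 CPM, 1.72) and monocytes (3.47). Il1rap, the accessory chain of the interleukin-1 receptor, had 61.3 and 136 CPM in immature neutrophils (2.21). Il1f9, an interleukin-36 cytokine gene, had 185 and 300 CPM in tumor neutrophils (1.62). P2rx7, the channel for extracellular ATP that triggers NLRP3, was lower in T cells, at 127 and 64.0 CPM (0.504), and Ninj1, which ruptures the membrane after pore formation, was lower in monocytes (0.578).

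Over 30 sums, each of 1 class in 1 library, Il1b and Nlrp3 had a Pearson r of 0.971 for log2(CPM + 1), Il1b and Il1r2 0.951 and Il1rn and Nlrp3 0.951, whereas Casp1 and Casp4 had -0.069 and Il1rn and Casp1 -0.499. These points share libraries, and a class entered only from a library where it held at least 50 cells. Both macrophage classes therefore entered from the PBS library only. Dendritic, natural killer and plasma cells entered from the cmExoaCD11b library only, so r is a description only. Among 8947 genes, those most like Il1b were Sirpb1b (0.976), Igfbp6 (0.974) and Nlrp3, those most like Il1r2 were led by the neutrophil growth factor receptor gene Csf3r (0.968), and those most like Il1rn by Ptafr (0.971). Nlrp3 was most like the chemokine receptor-like gene Ccrl2 (0.976) and Dusp1 (0.975). Il18 was led by the interferon-inducible genes Ifi211 (0.866) and Ifi204 (0.822), and Casp4 by Resf1 (0.914) and Ifit1bl2 (0.908). The genes most like Il1a, Il18bp, Casp1 and Gsdmd were 4930430E12Rik (0.953), Gm34589 (0.879), Tagap (0.821) and Arpc1b (0.822).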

How the data were processed

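Single-cell 3′ RNA libraries of 2 pancreatic tumor pools, 1 per treatment, were taken as the authors deposited them, as UMI counts per gene and barcode with all barcodes kept (67143628 UMIs in 644248 PBS barcodes, 81288480 in 723594 cmExoaCD11b barcodes). The file headers name Cell Ranger 7.1.0, whereas the study's methods give another version, and the genome build and annotation are not given in the sources used here. Whether introns were counted is likewise not given.

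Cells were called by a ranked-UMI cut-off (99th percentile of the top 3000 barcodes divided by 10) plus a Monte Carlo test of barcodes with at least 500 UMIs against the profile of barcodes with at most 100 UMIs (10000 simulations, false discovery rate 0.01). This called 7673 PBS and 7860 cmExoaCD11b cells. Cells with under 200 genes or over 20% mitochondrial UMIs were dropped, and the top-scoring 419 and 450 cells by Scrublet were left out as likely doublets, since its automatic threshold marked 0 cells. Gates used fixed marker lists with thresholds set after seeing marker distributions. Neutrophils had at least 60 marker UMIs per 10000 from 2 genes, or 10 UMIs of Elane, Mpo, Prtn3 and Ctsg together. Precursors had at least 10 precursor UMIs, immature neutrophils 100 per 10000 and mature neutrophils 20 per 10000 of their markers. Tumor neutrophils were the rest, split by the highest programme of at least 20 per 10000. Macrophages had at least 10 marker UMIs from 3 genes, monocytes 5 from 2 genes, and T and B cells 3 from 2 genes. Cells of more than 1 lineage (340 and 425) and cells passing no gate (657 and 561) were left out of classes.

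Counts were summed per class and scaled to CPM with exact Poisson intervals, shares had Clopper-Pearson intervals and ratios exact conditional intervals, all at 95%. The scripts were checked on simulated counts. Tools were Python 3.11.15 with numpy 2.4.6, scipy 1.17.1, pandas 2.3.3 and scanpy 1.11.5. The named genes were all 10 members, a list of pathway genes, an interferon list and the 3 genes most correlated with each member. Members and lists were chosen with earlier results of these data known. Alternatives covered cell calling, mitochondrial limit, doublets, gates, free RNA, depth, scaling, thresholds and per-cell means, and 2 were added after seeing the data: immature neutrophils without Cxcr2, and T cells without the 5 richest in Il1b.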

Additional observations from a re-analysis of the deposited data

Results flagged for a closer look

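Il1a had a ratio of 1.71 in immature neutrophils and 0.120 in macrophages, and stands out because the cmExoaCD11b library was higher in one class and lower in the other. The difference between these classes was not tested, since each treatment had 1 library, and the immature value was 0.873 without the removal of likely doublets.

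Il1b likewise had a ratio of 2.30 in immature neutrophils and 0.501 in T cells. This difference was not tested either, and the T cell ratio was 0.734 without the 5 cells of each library that held most Il1b UMIs.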

How the results depend on the processing

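No paired analysis was possible because each treatment was 1 pool of different mice. Alternatives were run for the classes whose members were counted, for all neutrophils together and for B cells. They were not run for the classes within tumor neutrophils, macrophages or T cells. For the 48 member ratios past 1.5-fold where they were run, alternatives gave 428 values. Of these, 425 kept their direction and 383 of those also stayed past 1.5-fold. Those that turned were Il1a in immature neutrophils (0.873 with no doublet removal), Casp4 in macrophages (0.839 thinned) and Nlrp3 in T cells (0.880 as a mean over cells). Alternatives with under 20 UMIs gave no ratio.

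For Il1a in tumor neutrophils the ratio was 0.741 with the ranked-UMI cut-off alone, 0.579 with stricter gates and 0.451 as a mean over cells. Casp4 there was 1.12 with the ranked-UMI cut-off alone and Il18bp 1.23 thinned. In macrophages Il1b was 0.586 (ranked-UMI), 0.798 (stricter), 0.751 (thinned) and 0.733 (mean over cells), Il1r2 was 3.46 (stricter), 2.14 (thinned) and 2.41 (mean over cells), and Il18bp was 4.53 (mean over cells). The ranked-UMI cut-off kept 105 PBS and 10 cmExoaCD11b tumor neutrophils.

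Counts of members also moved. At 2-fold, higher and lower members numbered 0 higher in precursors, 5 higher in immature, 1 and 1 in mature and 2 and 0 in tumor neutrophils, 3 and 1 in macrophages, 3 and 1 in monocytes and 0 and 1 in T cells, where between 2.48% and 7.66% of all genes tested were higher and between 0.601% and 5.3% lower across classes. Thinned, fewer members were tested, with 2 of 3 higher in precursors, 6 of 8 in immature, 2 of 8 in mature and 2 of 8 in tumor neutrophils. Macrophages had 1 of 5 higher, monocytes 0 higher and 1 lower of 2, and T cells 0 and 0 of 3. Over these classes 11.9% to 18.3% of all genes were higher and 3.03% to 18.3% lower. With no doublet removal there were 1 lower in precursors and 5 higher in immature neutrophils (2.5% and 13.9% of all genes). Macrophages then had 3 of 10 lower and T cells 2 higher and 3 lower of 8 (13.6%, 9.96% and 7.13% of all genes). Stricter gates gave 4 of 9 higher in precursors, 6 of 9 higher in immature neutrophils and 5 and 1 in mature neutrophils. They also gave 1 lower in macrophages and 4 lower in monocytes (9.44% to 19.1% of all genes higher, 1.94% to 16.9% lower). The ranked-UMI cut-off gave 6 of 9 higher in immature, 2 and 1 of 6 in mature and 1 and 0 of 6 in tumor neutrophils. It also gave 1 lower in monocytes and 4 of 7 higher in T cells (9.15% to 20.9% higher, 2.15% to 29.3% lower). Size factors gave 2 higher in precursors, 5 in immature neutrophils and 2 in T cells (5.83%, 8.34% and 8.84% of all genes). The causes were not tested. Depth limits ratios that rest on few UMIs, such as those of Il18 and of Il1a in cmExoaCD11b macrophages (43 UMIs).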

Other observations

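Cells that passed no gate (657 in the PBS and 561 in the cmExoaCD11b library) also held these transcripts, with Il1a at 332 and 59.5 CPM, Il1b at 1482 and 452 CPM and Il1rn at 671 and 173 CPM. The same direction was found in macrophages, monocytes and mature neutrophils, though the Il1b ratio of mature neutrophils was only 0.894. Other classes went the other way. Il1b was higher in precursors (ratio 1.35), immature (2.30) and tumor neutrophils (1.17). Il1a and Il1rn were higher in immature neutrophils (1.71 and 1.26), Il1a not without doublet removal. The cells without a gate also differed in quality, with median mitochondrial shares of 0.873% and 4.59%.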
